A study of Mus musculus with 7 samples.

Results

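The 40 genes described here encode proteins that drive mitosis and share out the chromosomes between daughter cells. They were taken by gene symbol. All 40 were found among the 24328 symbols measured in kidney by RNA-seq. Whole right kidneys came from 3 LBR-null mice of genotype Lbric-J/ic-J (mice 4001, 4002 and 4007) and from 1 WT littermate of genotype Lbr+/+ (mouse 4009). All mice were C57BL/6J and 4 weeks old. LBR, the lamin B receptor, is a protein of the inner nuclear membrane that holds heterochromatin at the nuclear periphery. Lbric-J is a loss-of-function allele carried by every cell of the animal. Poly(A) RNA of pulverized kidney was sequenced from 2 libraries each for mice 4001, 4007 and 4009 and from 1 library for mouse 4002.

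A cell that enters mitosis needs cyclin-dependent kinase 1 with its A and B cyclins, condensed chromosomes, a spindle whose microtubules are held by kinetochores, and a checkpoint that delays the anaphase promoting complex until every kinetochore is attached. Most of these proteins are made from genes that are transcribed late in the cell cycle and are almost silent in resting cells, under the MuvB complex with B-MYB and FOXM1, often with NF-Y. In the mouse kidney, cells of the tubules still divide while the organ grows after weaning, and few divide in the adult.

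Depth ranged from 20694016 to 26333284 reads on genes per library, a ratio of 1.273. One read was worth 0.787 to 1.15 normalized counts (reads divided by the size factor of the library). The kidney markers Lrp2, Umod and Aqp2 were read in all 7 libraries, with Umod at 65565, 30513, 20476 and 38395 normalized counts in mice 4001, 4002, 4007 and 4009. Lbr itself stood at 322, 340 and 471 normalized counts in the LBR-null mice and 398 in the WT mouse, a log2 difference of -0.10 ± 0.32 (SE), so the labelled genotypes could not be checked by it. Sex is not stated in the labels. Xist and Ddx3y placed mouse 4002 beside the WT mouse and mice 4001 and 4007 apart from both. With 1 WT mouse, the genotype and the individual cannot be told apart. The smallest p of an exact one-sided permutation test of 3 mice against 1 is 0.250.

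Most of the mitotic genes were lower in the kidneys of the LBR-null mice than in WT kidney. The mean over the 3 LBR-null mice was at least 2-fold below WT for 29 of the 40 genes and at least 2-fold above it for 0. Over all genes read in either group the same limits were met by 8.80% downward and 22.7% upward, and over the 17283 genes with a mean of at least 5 normalized counts, which include all 40, by 7.04% downward. All 3 LBR-null mice lay below the WT mouse for 33 of the 40, against 32.3% of all genes tested, and above it for 1, against 33.7%. At the level of single libraries, the 5 LBR-null libraries lay below both WT libraries for 33 mitotic genes (25.7% of all genes) and above both for 1 (25.5%).

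The median log2 difference of the 40 genes, on log2(normalized counts + 1), was -1.86, beside 0.01 for all genes tested. Taken mouse by mouse, the median was -1.90, -1.97 and -1.74 for mice 4001, 4002 and 4007, each set against the same WT mouse. Mice 4001 and 4007 had Xist at 5785 and 9940 normalized counts and Ddx3y at 141 and 44.3. With mouse 4001 or mouse 4007 left out in turn, the count of genes at least 2-fold lower was again 29. Mouse 4002, the LBR-null mouse whose Xist (65.3 normalized counts) and Ddx3y (1516) were near those of the WT mouse (35.5 and 1284), had 29 of the 40 genes at least 2-fold below WT when taken alone, as against 31 for mouse 4001 and 30 for mouse 4007. By size, 18 genes differed by -2 or less on the log2 scale, 11 lay between -2 and -1, 4 lay between -1 and -0.5, and 7 lay at or above -0.5. Summed over all 40 genes, the normalized counts came to 4519, 4553 and 3920 in mice 4001, 4002 and 4007 and 9077 in WT. Pttg1, which was above WT in all 3 mice, alone held more reads than any other of the 40 genes. Summed without Pttg1, they came to 2428 ± 207 (SD, n = 3 mice) in LBR-null kidney and 7467 in WT kidney, or 32.5% of WT. In whole kidney, fewer dividing cells and less RNA per dividing cell cannot be told apart.

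**Figure D1:**
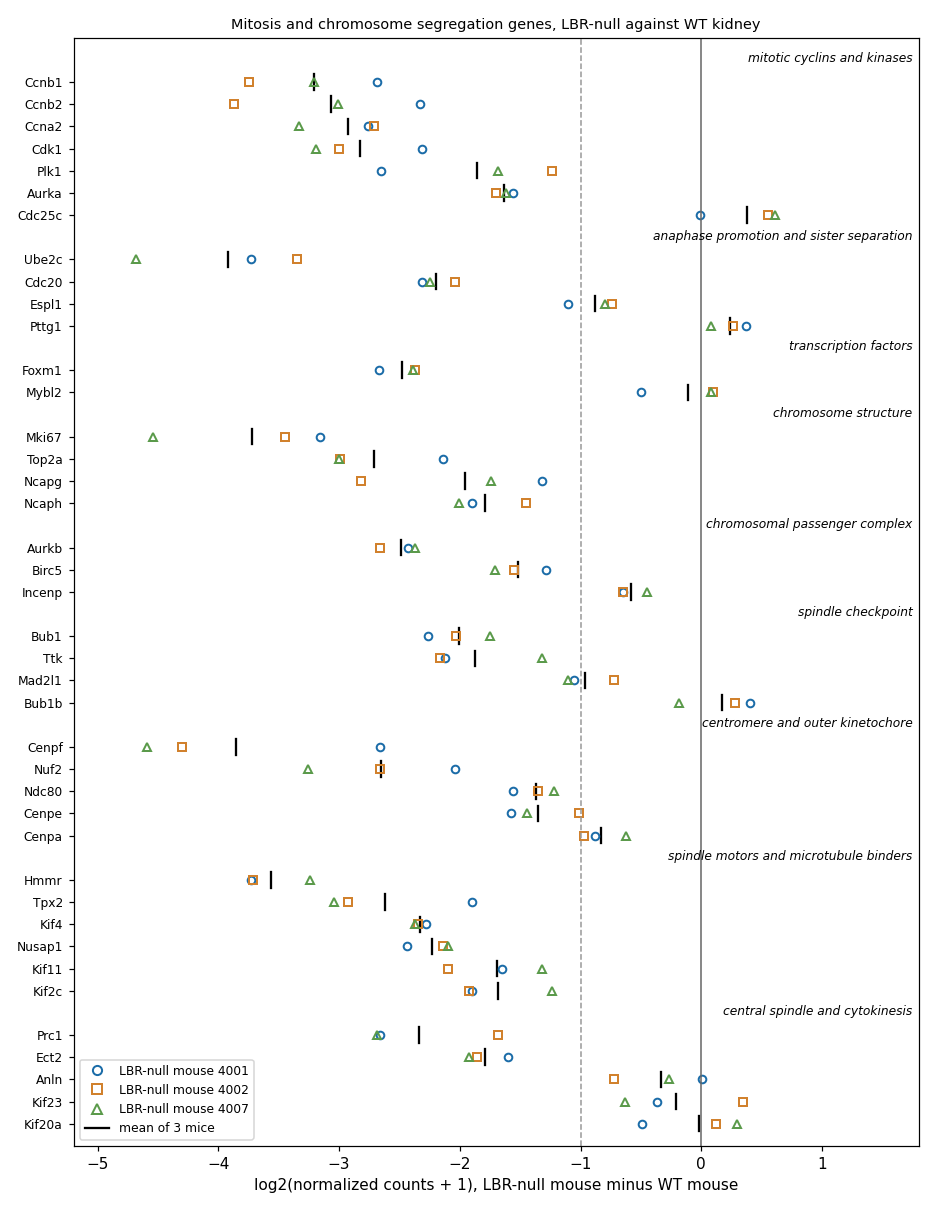
Each row is 1 gene and each open symbol 1 LBR-null mouse, placed on the x axis by its log2(normalized counts + 1) minus that of the WT mouse, with a black bar at the mean of the 3 mice, a solid line at 0 and a dashed line at -1, a 2-fold difference. Symbols of all 3 mice lie left of 0 for 33 of the 40 genes, and the 7 genes with a mean at or above -0.5 are Cdc25c, Pttg1, Mybl2, Bub1b, Anln, Kif23 and Kif20a.

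limma, fitted across all 17283 genes, called 0% of genes, and thus 0 of the 40, where a call needs both 2-fold and an adjusted p of 0.05. Its smallest adjusted p was 0.0795 among the mitotic genes (Hmmr) and 0.0533 among all genes, in a fit with 2 residual degrees of freedom, where the spread comes from the LBR-null mice alone. At an unadjusted p under 0.05, 31 of the 40 were lower and 0 higher, where 8.05% of all genes were lower. edgeR on the reads summed per mouse called 0 of the 40, while it called 0.156% of all genes lower. DESeq2 on the same reads called 24 of the 40 lower, against 3.33% of all genes, and 0 of the 40 higher, against 3.08%. The calls of limma, for the mitotic genes and for all genes, moved with the LBR-null mouse left out. Those fits held fewer LBR-null mice against the same 1 WT mouse. For each of the 40 genes, the values of every library are therefore given.

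**Figure D2:**
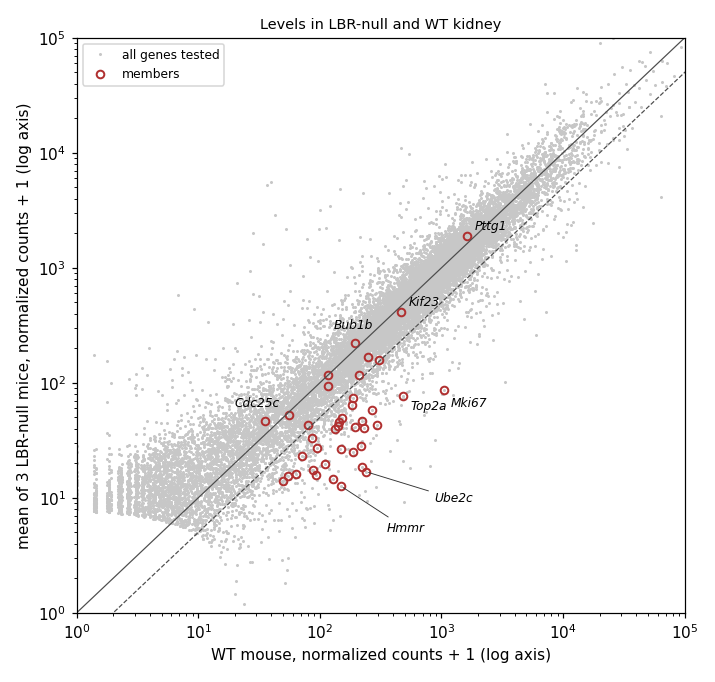
Grey points are the 17283 genes tested and red circles the 40 mitotic genes, with normalized counts + 1 of the WT mouse on the x axis and the mean of the 3 LBR-null mice on the y axis, both on log axes, a solid line at equality and a dashed line at a 2-fold lower value. Of the red circles, 29 lie on or below the dashed line, Mki67 and Top2a among them, while Pttg1, the most highly read at 1610 normalized counts in WT, lies just above the solid line.

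The promoters of the mitotic genes shared sequence that the choice of the genes did not use. The MuvB complex binds the hexamer TTTGAA, known as the cell cycle genes homology region, and NF-Y binds the CCAAT box. RefSeq promoter entries (GRCm38.p6, 250 bases before to 50 after the start) were found for 33 of the 40 genes, with 35 entries in all, and not for Cdc25c, Aurkb, Incenp, Kif20a, Foxm1, Tpx2 and Ccna2. TTTGAA, read on either strand and hence also as TTCAAA, was present in 71.4% of the entries of mitotic genes and in 17.9% of all 32851 entries. Within 50 bases of the start it was found in 65.7% and 5.14% of entries. CCAAT, or ATTGG on the other strand, was present in 71.4% and 37.4%, and at least 2 copies in 45.7% and 11.7%. Both motifs occurred together in 62.9% of entries of mitotic genes and in 6.95% of all entries. TTTAAA, a known variant of the MuvB element that reads alike on both strands, was present in 25.7% and 13.2%. Each motif was counted on its own, and a CCAAT match may share 1 end base with a TTTGAA match. A match describes the letters and is not a bound site.

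The stretch from 120 bases before to 20 after the start is shown for the 8 genes with the largest LBR-null differences among those with an entry, and for 3 of the 5 genes near WT with an entry (Kif23, Mybl2 and Pttg1), which were chosen after their entries were seen. Capitals mark the 3 motifs on either strand. All are read 5′ to 3′ along the gene, from GRCm38.p6, at chr2:164769809-164769948 (plus strand) for Ube2c, chr1:189688067-189688206 (minus) for Cenpf, chr7:135716360-135716499 (minus) for Mki67, chr11:40733418-40733557 (minus) for Hmmr, chr13:100786467-100786606 (minus) for Ccnb1, chr9:70421535-70421674 (minus) for Ccnb2, chr10:69352893-69353032 (minus) for Cdk1, chr11:99024170-99024309 (minus) for Top2a, chr9:61946780-61946919 (minus) for Kif23, chr2:163054515-163054654 (plus) for Mybl2 and chr11:43425962-43426101 (minus) for Pttg1.
Ube2c: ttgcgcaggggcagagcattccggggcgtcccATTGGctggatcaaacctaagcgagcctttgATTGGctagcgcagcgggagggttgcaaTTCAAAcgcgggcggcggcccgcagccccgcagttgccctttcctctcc
Cenpf: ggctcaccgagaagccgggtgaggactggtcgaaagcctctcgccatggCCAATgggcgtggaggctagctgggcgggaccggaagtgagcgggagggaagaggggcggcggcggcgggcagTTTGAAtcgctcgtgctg
Mki67: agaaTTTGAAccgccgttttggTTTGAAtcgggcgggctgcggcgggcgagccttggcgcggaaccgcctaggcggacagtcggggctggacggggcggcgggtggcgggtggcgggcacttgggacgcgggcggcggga
Hmmr: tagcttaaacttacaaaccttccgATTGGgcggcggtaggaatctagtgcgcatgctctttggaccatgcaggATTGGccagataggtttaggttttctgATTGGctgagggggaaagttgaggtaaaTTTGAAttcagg
Ccnb1: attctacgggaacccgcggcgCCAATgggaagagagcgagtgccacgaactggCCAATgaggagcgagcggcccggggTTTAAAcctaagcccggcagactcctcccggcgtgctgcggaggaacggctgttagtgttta
Ccnb2: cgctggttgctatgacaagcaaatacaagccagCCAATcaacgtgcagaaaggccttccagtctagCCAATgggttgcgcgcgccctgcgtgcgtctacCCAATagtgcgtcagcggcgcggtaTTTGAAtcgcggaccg
Cdk1: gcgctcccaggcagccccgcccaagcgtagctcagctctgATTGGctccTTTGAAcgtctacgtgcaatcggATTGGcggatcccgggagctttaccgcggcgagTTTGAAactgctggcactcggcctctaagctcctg
Top2a: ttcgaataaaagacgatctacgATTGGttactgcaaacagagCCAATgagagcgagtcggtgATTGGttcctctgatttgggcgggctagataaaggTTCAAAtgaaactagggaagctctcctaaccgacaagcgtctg
Kif23: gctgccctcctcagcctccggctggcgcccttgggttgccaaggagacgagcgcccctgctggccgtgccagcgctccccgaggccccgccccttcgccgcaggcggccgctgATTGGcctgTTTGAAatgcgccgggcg
Mybl2: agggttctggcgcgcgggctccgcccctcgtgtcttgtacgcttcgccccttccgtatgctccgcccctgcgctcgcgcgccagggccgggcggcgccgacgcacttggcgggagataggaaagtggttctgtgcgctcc
Pttg1: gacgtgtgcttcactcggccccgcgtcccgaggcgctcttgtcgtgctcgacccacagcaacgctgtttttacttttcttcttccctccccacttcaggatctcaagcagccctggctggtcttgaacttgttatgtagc

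Of the 8 genes with a large difference, 7 hold TTTGAA in the stretch shown and Ccnb1 holds TTTAAA in its place. Of the 5 genes near WT that have an entry, Mybl2 and Pttg1 hold none of the 3 motifs, while Kif23, Bub1b and Anln hold TTTGAA. Kif23 and Bub1b hold both TTTGAA and CCAAT, and Kif23 differed by -0.21 on the log2 scale, whereas Nuf2 (-2.65) and Nusap1 (-2.23) hold none of the 3 in their whole entry. Over the 33 genes, the median log2 difference was -1.87 for the 23 with TTTGAA and -1.66 for the 10 without it. Single genes ran from -3.92 to 0.17 with it and from -3.21 to 0.24 without it. Whether the motif goes with the size of the difference was not tested. The 40 genes lie on 16 chromosomes, with at most 8 on 1 chromosome (chromosome 2).

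The kinases and cyclins that start mitosis had 7 genes among the 40, of which 6 were at least 2-fold lower and 0 higher, with a median log2 difference of -2.83. Values of LBR-null libraries are given here and below in normalized counts for libraries 1 and 2 of mouse 4001, the library of mouse 4002, and libraries 1 and 2 of mouse 4007, in that order. Cdk1 (mm9, chr10:68799383-68815686), the kinase whose activity defines entry into mitosis, stood at 49.4, 68.3, 36.1, 41.0 and 21.9 in LBR-null libraries and at 285 and 307 in WT libraries. The LBR-null mice averaged 42.1 ± 14.7 (SD, n = 3 mice), 14.2% of WT, a log2 difference of -2.83 ± 0.47 (SE) with an adjusted p of 0.0906 in limma and 1.09e-05 in DESeq2. Its partner Ccnb1 (mm9, chr13:101548605-101556525), cyclin B1, had 11.5, 26.6, 8.60, 14.9 and 10.9 against 128 and 128, the largest difference of this class (-3.21 ± 0.57 (SE), adjusted p 0.0938 in limma and 9.61e-05 in DESeq2). All LBR-null libraries were far below both WT libraries for Cdk1 and Ccnb1, and library 2 of mouse 4001 was the highest of them for both genes.

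Ccnb2, cyclin B2, was read at 42.5, 41.7, 13.8, 26.1 and 25.5 in LBR-null and 235 and 196 in WT libraries, a log2 difference of -3.07 ± 0.64 (SE) with an adjusted p of 0.107 in limma and 2.52e-04 in DESeq2. Ccna2, cyclin A2, which acts in S phase as well as at mitotic entry, was read at 29.9, 23.1, 27.5, 19.6 and 15.5 and 186 and 185 (-2.93 ± 0.46 (SE), adjusted p 0.0906 in limma and 2.15e-06 in DESeq2). In the gene models, 14.6% of the exon bases of Ccna2 lie over Exosc9 on the other strand. The sources used here do not say whether reads were counted by strand. Exosc9 stood at 648 and 511 normalized counts in the libraries of mouse 4001, 273 in mouse 4002, 342 and 324 in mouse 4007 and 269 and 280 in WT, and its part in the value of Ccna2 was not tested. Aurka, the kinase of centrosomes and spindle poles, had 50.5, 50.6, 45.6, 54.0 and 42.8 in LBR-null and 169 and 133 in WT libraries, and its 3 mice were closer together than those of any cyclin (-1.63 ± 0.37 (SE), adjusted p 0.114 in limma and 0.00641 in DESeq2).

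Plk1, the polo-like kinase that acts from entry to cytokinesis, stood at 24.1, 18.6, 58.5, 38.2 and 47.4 in LBR-null libraries and 140 and 139 in WT libraries. Its libraries did not overlap either. The mice differed, with log2 differences of -2.65 in mouse 4001 and -1.24 in mouse 4002, and neither limma (adjusted p 0.176) nor DESeq2 (0.0710) called it. Cdc25c, the phosphatase that removes the inhibitory phosphates from CDK1, was the exception of the class, at 36.7, 31.1, 50.7, 39.1 and 66.5 in LBR-null and 32.3 and 36.2 in WT libraries. Its groups overlapped, with libraries of mouse 4001 at the level of WT and the other mice above it. The log2 difference of 0.38 ± 0.46 (SE) had an adjusted p of 0.701 in limma.

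**Figure D3:**
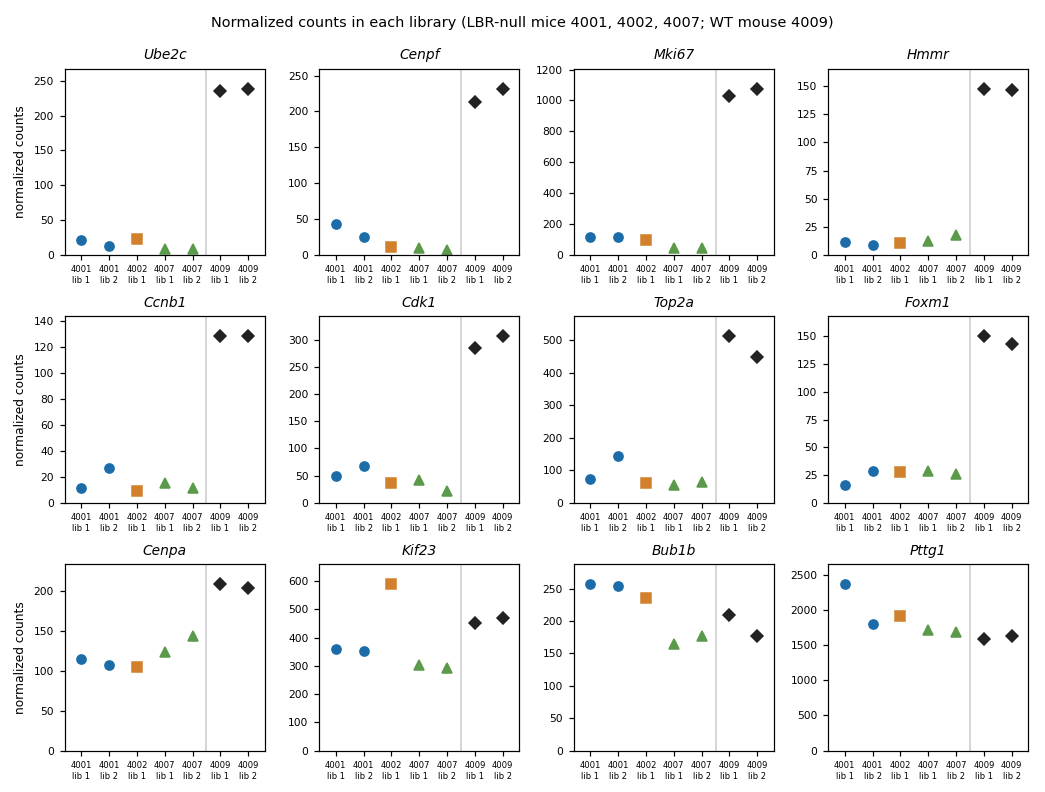
Normalized counts (y axis, from 0) of 12 mitotic genes in each of the 7 libraries, with LBR-null mice 4001 (circles), 4002 (squares) and 4007 (triangles) left of the line and WT mouse 4009 (diamonds) right of it. For the first 9 genes every LBR-null library lies below both WT libraries, by the largest ratio for Ube2c and the smallest for Cenpa, while Kif23 and Bub1b overlap and Pttg1 is higher in all 5 LBR-null libraries.

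Among the 4 genes that promote anaphase, Ube2c and Cdc20, which serve the anaphase promoting complex, were at least 2-fold lower, and separase and its inhibitor were not. Ube2c (mm9, chr2:164595398-164604322), the ubiquitin-conjugating enzyme that serves the complex, had the largest difference of all 40 genes, with 20.7, 13.3, 22.4, 8.38 and 8.20 in LBR-null and 235 and 239 in WT libraries. The LBR-null mean was 15.9 ± 7.10 (SD, n = 3 mice), 6.70% of WT (-3.92 ± 0.62 (SE) on the log2 scale, adjusted p 0.0906 in limma and 4.29e-08 in DESeq2), and it ranked 33 from the lowest of 17283 genes. Cdc20, the activator that the spindle checkpoint holds back, stood at 47.1, 58.6, 63.6, 51.2 and 58.3 in LBR-null and 260 and 270 in WT libraries, and its LBR-null libraries were close to one another (-2.20 ± 0.36 (SE), adjusted p 0.0906 in limma and 8.99e-06 in DESeq2). In the gene models, 22.8% of the exon bases of Ube2c lie over Tnnc2 and 2.84% of those of Cdc20 over Elovl1, both on the other strand. The part of Tnnc2 and Elovl1 in the values of Ube2c and Cdc20 was not tested.

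Espl1, separase, the protease that cuts cohesin, had 35.6, 36.4, 46.4, 46.6 and 42.8 in LBR-null and 66.1 and 90.5 in WT libraries. All LBR-null libraries lay below WT, but the WT libraries were themselves apart. The difference of -0.88 ± 0.41 (SE) had an adjusted p of 0.314 in limma. Pttg1, securin, the inhibitor of separase, stood at 2370, 1798, 1922, 1720 and 1685 in LBR-null and 1593 and 1627 in WT libraries. It was the 1 mitotic gene for which all 5 LBR-null libraries were above WT, by a margin that was narrow in mouse 4007 (0.08 on the log2 scale), and its difference of 0.24 ± 0.24 (SE) had an adjusted p of 0.651 in limma. Per kilobase of exon, the level of Pttg1 in WT kidney (805 normalized counts) was above that of all other mitotic genes, of which Cdc20 (142) was the next.

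Of the pair of transcription factors among the 40 genes, Foxm1 was lower and Mybl2 was not. Foxm1, which drives the genes of G2 and mitosis, was read at 16.1, 28.4, 27.5, 28.9 and 25.5 in LBR-null and 150 and 143 in WT libraries, and library 1 of mouse 4001 was the lowest. Its difference was -2.48 ± 0.42 (SE), with an adjusted p of 0.0906 in limma and 6.00e-05 in DESeq2. Mybl2, the B-MYB subunit that joins MuvB in S phase, had 40.2, 36.4, 58.5, 52.2 and 63.8 in LBR-null and 62.2 and 47.0 in WT libraries. The groups of Mybl2 overlapped throughout, with mouse 4001 below WT and mice 4002 and 4007 slightly above (-0.50, 0.10 and 0.08). The sign of its difference (-0.11 ± 0.44 (SE), adjusted p 0.926 in limma) turned to 0.09 without mouse 4001.

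All 4 genes of chromosome structure were at least 2-fold lower, with a median log2 difference of -2.34. Mki67 (mm9, chr7:142881471-142908062), which coats mitotic chromosomes and is the usual marker of cycling cells, stood at 116, 117, 95.4, 46.6 and 41.9 in LBR-null libraries and 1026 and 1077 in WT libraries. Mouse 4007 was the lowest of the 3, and the mean of 85.4 ± 37.2 (SD, n = 3 mice) was 8.12% of WT (-3.72 ± 0.56 (SE), adjusted p 0.0870 in limma and 7.01e-09 in DESeq2). Top2a, topoisomerase II alpha, which untangles sister DNA, had 73.5, 143, 59.3, 54.0 and 63.8 in LBR-null and 512 and 448 in WT libraries (-2.71 ± 0.46 (SE), adjusted p 0.0906 in limma and 1.90e-05 in DESeq2). Library 2 of mouse 4001 stood above the other LBR-null libraries and still below both WT values.

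Ncaph and Ncapg are subunits of condensin I, which compacts chromosomes in mitosis. Ncaph had 29.9, 39.9, 48.1, 28.9 and 35.5 in LBR-null and 143 and 123 in WT libraries (-1.79 ± 0.43 (SE), adjusted p 0.116 in limma and 0.0108 in DESeq2). Ncapg was read less, at 12.6, 24.8, 6.02, 15.8 and 11.8 and 48.0 and 48.9, and 13.3% of its exon bases lie over Lcorl on the other strand. Its groups did not overlap, but the mice spread from -2.82 in mouse 4002 to -1.32 in mouse 4001 on the log2 scale and neither limma (adjusted p 0.203) nor DESeq2 (0.188) called it. The subunits that condensin I shares with condensin II differed from each other. Smc2 stood at 131, 128, 232, 146 and 162 in LBR-null and 407 and 435 in WT libraries (-1.33 ± 0.40 (SE), adjusted p 0.156 in limma). Smc4 stood at 1890, 1601, 1749, 2217 and 1904 and 1731 and 1739 (0.09 ± 0.24 (SE), 0.879).

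The chromosomal passenger complex corrects faulty attachments at centromeres, and all 3 of its subunits among the 40 genes lay below WT in all libraries. Aurkb, its kinase, had 29.9, 8.87, 16.3, 17.7 and 22.8 in LBR-null and 110 and 108 in WT libraries, and the libraries of mouse 4001 differed more for Aurkb than for any other mitotic gene (1.65 on the log2 scale). Its difference from WT was -2.49 ± 0.44 (SE), with an adjusted p of 0.0938 in limma and 3.25e-04 in DESeq2. Birc5, survivin, had 72.3, 75.4, 61.9, 54.0 and 56.5 and 171 and 194 (-1.52 ± 0.37 (SE), adjusted p 0.119 in limma and 0.0138 in DESeq2). Incenp, the scaffold of the complex, had 164, 149, 157, 183 and 179 and 256 and 238, a smaller difference of -0.58 ± 0.30 (SE) that was not called (adjusted p 0.359 in limma and 0.370 in DESeq2). The order of the 3 subunits by size of difference, Aurkb, Birc5 and Incenp, was the same in each LBR-null mouse.

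The 4 genes of the spindle checkpoint did not move as 1 group. Bub1, the kinase that recruits the checkpoint to kinetochores, was read at 6.89, 17.7, 14.6, 21.4 and 14.6 in LBR-null and 63.0 and 62.4 in WT libraries (-2.01 ± 0.49 (SE), adjusted p 0.116 in limma and 0.0350 in DESeq2). Ttk, the MPS1 kinase that starts the signal, had 11.5, 11.5, 11.2, 23.3 and 18.2 and 55.1 and 51.6, with libraries of mouse 4007 above the other LBR-null libraries (-1.87 ± 0.56 (SE), adjusted p 0.156 in limma and 0.113 in DESeq2). Mad2l1, MAD2, which binds CDC20, had 138, 155, 185, 146 and 138 and 314 and 296, a difference just short of 2-fold at 51.7% of WT (-0.96 ± 0.32 (SE), adjusted p 0.186 in limma). Bub1b, BUBR1, the other inhibitor of CDC20, had 257, 254, 236, 165 and 177 in LBR-null and 210 and 177 in WT libraries. Mouse 4001 and mouse 4002 were above both WT libraries and mouse 4007 was at or below them, so the groups overlapped (0.17 ± 0.35 (SE), adjusted p 0.837 in limma).

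At the centromere and outer kinetochore all 5 genes were below WT in all libraries and 4 of them at least 2-fold. Cenpf (mm9, chr1:191464478-191511965), a large kinetochore protein made in G2, stood at 43.6, 24.8, 10.3, 9.31 and 7.29 in LBR-null and 213 and 232 in WT libraries. The LBR-null mean of 17.6 ± 14.4 (SD, n = 3 mice) was 7.92% of WT (-3.85 ± 0.80 (SE), adjusted p 0.107 in limma and 2.12e-04 in DESeq2). Its SD over the LBR-null mice on the log2 scale, 1.04, was the largest of the 40 genes, with mouse 4001 above the other mice. Nuf2 and Ndc80 are 2 subunits of the complex that grips the ends of microtubules. Nuf2 had 26.4, 16.9, 13.8, 7.45 and 10.0 and 93.7 and 90.5 (-2.65 ± 0.60 (SE), adjusted p 0.114 in limma and 0.00596 in DESeq2). Ndc80 had 21.8, 34.6, 32.7, 41.9 and 30.1 and 86.6 and 83.2 (-1.37 ± 0.42 (SE), adjusted p 0.159 in limma and 0.0920 in DESeq2). The libraries of neither gene overlapped between groups.

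Cenpe, the kinesin that carries chromosomes to the metaphase plate, had 58.6, 63.9, 91.1, 57.7 and 77.5 in LBR-null and 205 and 166 in WT libraries (-1.35 ± 0.39 (SE), adjusted p 0.148 in limma and 0.0426 in DESeq2). Cenpa, the histone H3 variant that marks the centromere, had 115, 108, 105, 124 and 144 and 209 and 204, or 56.5% of WT (-0.83 ± 0.34 (SE), adjusted p 0.258 in limma). The LBR-null mice were closely grouped for Cenpa and clear of WT, but the difference was short of 2-fold.

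The spindle motors and microtubule binders were the most uniform class, with all 6 genes at least 2-fold lower, a median log2 difference of -2.28 and medians of -2.09, -2.24 and -2.23 in mice 4001, 4002 and 4007. Hmmr (mm9, chr11:40514890-40546939), a binder of spindle microtubules and hyaluronan, stood at 11.5, 8.87, 10.3, 12.1 and 17.3 in LBR-null and 148 and 147 in WT libraries. Its mean of 11.7 ± 2.58 (SD, n = 3 mice) was 7.97% of WT (-3.56 ± 0.49 (SE)), with the smallest adjusted p of the 40 genes in limma (0.0795) and in edgeR (0.0526) and 1.32e-07 in DESeq2. Tpx2, which activates Aurora A on the spindle, had 82.7, 39.0, 29.2, 25.1 and 29.2 and 230 and 230, with library 1 of mouse 4001 above the rest (-2.62 ± 0.55 (SE), adjusted p 0.107 in limma and 5.33e-04 in DESeq2). Nusap1, which bundles microtubules near chromosomes, had 34.4, 34.6, 43.0, 39.1 and 49.2 and 187 and 198, close together within each group (-2.23 ± 0.39 (SE), adjusted p 0.0938 in limma and 9.19e-05 in DESeq2).

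Of the 3 kinesins in the class, Kif4, a motor on chromosome arms, differed most, at 26.4, 7.99, 16.3, 14.0 and 18.2 in LBR-null and 92.1 and 82.3 in WT libraries (-2.33 ± 0.45 (SE), adjusted p 0.0990 in limma and 0.00183 in DESeq2). Its mouse means had an SD of 0.578 normalized counts, while libraries 1 and 2 of mouse 4001 were far apart. Kif11, the motor that pushes spindle poles apart, had 40.2, 49.7, 32.7, 71.7 and 41.9 and 144 and 142 (-1.69 ± 0.45 (SE), adjusted p 0.130 in limma and 0.0274 in DESeq2). Kif2c, which takes microtubule ends apart at kinetochores, had 12.6, 24.0, 18.1, 28.9 and 30.1 and 62.2 and 79.6 (-1.68 ± 0.50 (SE), adjusted p 0.153 in limma and 0.0959 in DESeq2), and only DESeq2's p for Kif4 and Kif11 passed its threshold. Of the exon bases of Kif4, 15.1% lie over Pdzd11 on the other strand.

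The 5 genes of the central spindle and cytokinesis divided, with Prc1 and Ect2 lower and Kif23, Kif20a and Anln near WT. Prc1, which crosslinks the microtubules of the central spindle, had 28.7, 39.9, 68.8, 34.5 and 32.8 in LBR-null and 211 and 233 in WT libraries, with mouse 4002 above the other LBR-null mice (-2.34 ± 0.52 (SE), adjusted p 0.114 in limma and 0.00238 in DESeq2). Ect2, which activates RhoA at the division plane, had 18.4, 41.7, 24.9, 19.6 and 28.3 and 99.2 and 86.8 (-1.79 ± 0.43 (SE), adjusted p 0.115 in limma and 0.0224 in DESeq2). For neither gene did an LBR-null library reach a WT library.

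Kif23, the kinesin of the centralspindlin complex, had 361, 353, 589, 302 and 293 in LBR-null and 450 and 470 in WT libraries, with mouse 4002 above WT and the other mice below (-0.21 ± 0.41 (SE), adjusted p 0.822 in limma). Kif20a, which brings the passenger complex to the central spindle, had 74.6, 90.5, 126, 138 and 148 and 117 and 115 (-0.02 ± 0.42 (SE), adjusted p 0.984 in limma), below WT in mouse 4001 and above it in mice 4002 and 4007. The reading of Kif20a is uncertain, since 32.3% of its exon bases lie over Cdc23 on the other strand. Cdc23 was more highly read, at 696, 586, 588 and 743 normalized counts in mice 4001, 4002, 4007 and 4009. Anln, anillin, the scaffold of the contractile ring, had 121, 111, 69.6, 85.7 and 105 and 119 and 111, and its groups overlapped as well (-0.33 ± 0.41 (SE), adjusted p 0.717 in limma). Centralspindlin's other subunit, Racgap1, was called lower by DESeq2 but not by limma or edgeR, at 76.9, 71.0, 107, 85.7 and 85.7 in LBR-null and 254 and 263 in WT libraries (-1.54 ± 0.37 (SE), adjusted p 0.115 in limma, 0.117 in edgeR and 0.00822 in DESeq2).

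The 7 genes near WT ranged widely in level, from Cdc25c, with the lowest WT mean of the 40 genes (34.2 normalized counts), to Pttg1 with the highest (1610). In WT kidney Pttg1, Kif23 and Bub1b had 805, 118 and 45.3 normalized counts per kilobase of exon, and Kif20a, Anln, Cdc25c and Mybl2 had 29.8, 21.2, 17.6 and 11.8. Among the genes with the largest differences, Mki67 stood at 104 per kilobase in WT and 8.48 in LBR-null kidney, Ube2c at 91.2 and 6.11, Ccnb2 at 140 and 17.7, and Cenpf at 19.6 and 1.55. In LBR-null kidney, the highest levels per kilobase among the 40 genes were those of Pttg1 (951), Kif23 (106) and Mad2l1 (71.6). Every mitotic gene was still read in every LBR-null library, with at least 6 reads.

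Spread was measured between the libraries of a mouse and between the LBR-null mice. The median absolute difference between libraries 1 and 2 over the 40 genes was 0.35 on the log2 scale for mouse 4001 and 0.29 for mouse 4007. For the WT mouse it was 0.08. The median SD between the LBR-null mice was 0.34. None of these measures the spread between WT mice, of which there was 1. Of the 29 genes at least 2-fold lower, 8 were lowest in mouse 4001, 8 in mouse 4002 and 13 in mouse 4007.

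Further genes of kinetochores, spindle and passenger complex, taken from a separate list of 67, lay below WT by a smaller median log2 difference of -0.88. Of these, 53 were below WT in all 3 mice and 2 above, where 32.3% and 33.7% of all genes were, and 33 were at least 2-fold lower (7.04% of all genes). DESeq2 called 18 lower (3.33% of all genes) and 0 higher, and edgeR called 2, Pbk and Cdca3. Pbk, a kinase of mitotic cells, had 10.3, 4.44, 6.02, 6.52 and 2.73 in LBR-null and 142 and 149 in WT libraries, 4.13% of WT, the lowest of the list (-4.40 ± 0.53 (SE), adjusted p 0.0695 in limma, 0.0335 in edgeR and 2.60e-10 in DESeq2). Cdca3, which triggers mitotic entry, had 23.0, 39.0, 37.8, 28.9 and 39.2 and 269 and 311 (-3.05 ± 0.39 (SE), adjusted p 0.0770 in limma, 0.0475 in edgeR). At the other end was Cenpq, an inner kinetochore protein, with 194, 157, 70.5, 81.0 and 86.6 and 78.0 and 83.2 (0.33 ± 0.56 (SE), adjusted p 0.798 in limma), where mouse 4001 was above WT and the other mice near its level.

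Genes of the anaphase promoting complex, condensin and cohesin, most of which cells make throughout the cycle, were spread around WT. The 16 subunits and regulators of the anaphase promoting complex had 6 genes below WT in all mice and 6 above, where 32.3% and 33.7% of all genes were, none at least 2-fold away, and a median of 0.03, with extremes at Ube2s (-0.74) and Anapc16 (0.64). The 17 further genes of condensin and cohesin had 5 below and 7 above, with a median of 0.09. The 2 that were 2-fold lower were Smc2 and Cdca5. Cdca5, sororin, which protects cohesin, had 4.59, 13.3, 13.8, 9.31 and 11.8 in LBR-null and 52.8 and 47.0 in WT libraries (-2.09 ± 0.52 (SE), adjusted p 0.119 in limma and 0.0471 in DESeq2). Genes of replication licensing and S phase had 19 of 30 below WT in all mice and 1 above (32.3% and 33.7% of all genes), 6 at least 2-fold lower (7.04% of all genes) and a median of -0.39. Mcm5, a subunit of the replicative helicase, was the lowest of them at 73.5, 79.9, 62.8, 61.5 and 75.7 and 355 and 350 (-2.33 ± 0.34 (SE), adjusted p 0.0843 in limma and 3.14e-07 in DESeq2). Gmnn, geminin, which holds back licensing, was the highest (0.29 ± 0.32 (SE), adjusted p 0.678 in limma).

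**Figure D4:**
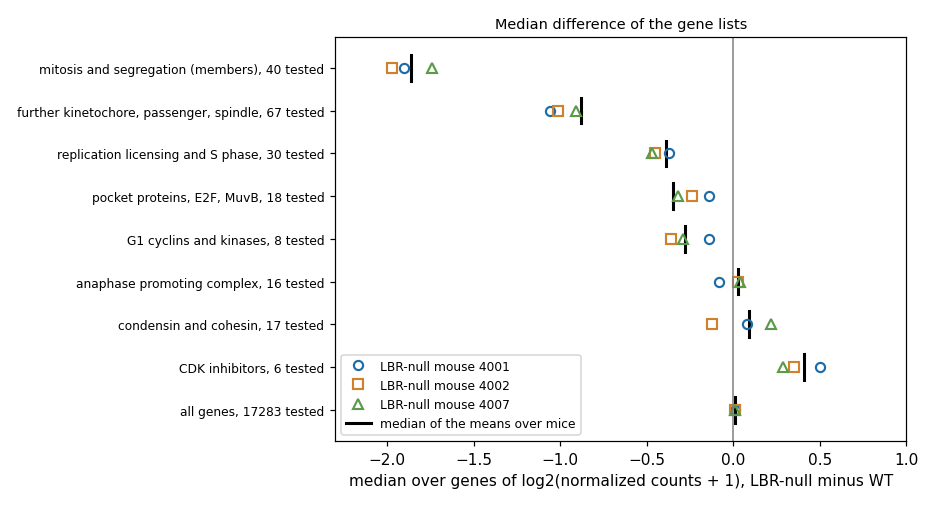
Median over the tested genes of each list (rows) of log2(normalized counts + 1) in LBR-null minus WT kidney (x axis), with a symbol for each LBR-null mouse and a bar for the median of the means over mice. The mitotic genes lie furthest left at -1.86, the further kinetochore and spindle genes at -0.88 and the replication genes at -0.39, with all genes tested at 0.01.

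Upstream of mitosis, the pocket proteins, E2F factors and MuvB subunits (18 genes) had 10 below WT in all mice and 5 above. Of all genes tested, 32.3% were below and 33.7% above. The 18 genes had a median of -0.35. They ran from E2f1 at -1.82 ± 0.48 (SE) (adjusted p 0.128 in limma and 0.0195 in DESeq2) to Rbl2, the pocket protein p130 of resting cells, at 0.81 ± 0.29 (SE) (0.203 in limma). Of 8 G1 cyclins and kinases, 5 were below WT in all mice and 0 above, where 32.3% and 33.7% of all genes were. Their median was -0.28, from Ccne1 (-1.45 ± 0.49 (SE)) to Ccne2 (0.55 ± 0.50 (SE)). Of 7 CDK inhibitors, 3 were above WT in all mice, where 33.7% of all genes were, and 1 was below, where 32.3% were. Cdkn1a, the CDK inhibitor p21, stood at 5371, 5097, 2401, 3227 and 3335 in LBR-null and 494 and 424 in WT libraries, every LBR-null library far above WT. Its log2 difference was 2.91 ± 0.43 (SE), with an adjusted p of 0.0843 in limma, 0.100 in edgeR and 6.12e-08 in DESeq2. It was the 1 gene of the list at least 2-fold higher. Cdkn1c, the inhibitor p57, was lowest at -0.51 ± 0.45 (SE).

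Markers of other cell types that a whole kidney can hold, some of which divide, were read beside these results. Of 12 markers of erythroid precursors, 5 were below WT in all mice and 3 above, where 32.3% and 33.7% of all genes were, as also for the lists that follow. Their sums were 2237, 3083 and 2230 normalized counts in mice 4001, 4002 and 4007 and 4494 in WT. Slc4a1, above WT in mouse 4002 alone, held 981, 1786 and 934 of the sums of these LBR-null mice and 1666 of the WT sum. Alas2, the heme synthesis enzyme of red cell precursors, held much of that sum, at 671, 551, 592, 557 and 622 in LBR-null and 2147 and 2103 in WT libraries (-1.83 ± 0.23 (SE), adjusted p 0.0744 in limma, 0.0475 in edgeR). The 3 markers above WT in all mice were Klf1, Gata1 and Ermap, with Gata1, a transcription factor of the lineage, at 20.7, 22.2, 6.02, 21.4 and 22.8 in LBR-null and 2.36 and 7.24 in WT libraries (1.41 ± 0.82 (SE), adjusted p 0.410 in limma). Of 10 markers of neutrophil precursors, which divide as well, 0 were below WT in all mice and 6 above, with sums of 237, 75.7 and 489 in LBR-null mice and 28.6 in WT. Of 6 markers of nephron progenitors, 2 were below WT in all mice and 0 above, with sums of 501, 582 and 396 in LBR-null mice and 615 in WT. Their defining factor Six2 was at 0.887, 1.72 and 2.75 in LBR-null mice and 1.24 in WT. Of the proximal tubule markers, Lrp2, Slc34a1 and Slc5a2 stood at 35.1%, 32.8% and 28.4% of WT and below it in all mice (adjusted p 0.0241, 0.00801 and 0.0479 in DESeq2, and 0.152, 0.158 and 0.176 in limma). In the thick ascending limb, Slc12a1 stood at 182% of WT and Umod at 101%. Slc12a3 of the distal tubule was at 77.5%, and Aqp2 and Atp6v1b1 of the collecting duct were at 137% and 85.4%. The part of these cell types in the level of the mitotic genes was not tested.

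The remaining marker lists gave sums in the order of mice 4001, 4002, 4007 and WT, and their counts stand beside 32.3% of all genes below WT in all mice and 33.7% above. Mature neutrophils (8 genes) had 7 genes above WT in all mice and 1 below, with sums of 1046, 450, 2513 and 185. The gene below was Mmp9 (-2.09 on the log2 scale). Macrophages (11 genes) had 8 below and 1 above, with sums of 3493, 3463, 3155 and 4654. The macrophage gene above was Lyz2 (0.22), and limma, edgeR and DESeq2 called 0 of the 11, with 3 lower at an unadjusted p under 0.05 in limma. T and NK cells (10 genes) had 4 below and 5 above, with sums of 189, 217, 208 and 284, and B cells (8 genes) had 2 below and 1 above, with 635, 1269, 1005 and 923. B cell sums lay on both sides of WT. Endothelium (7 genes) had 2 below and 1 above, with 20822, 25895, 25077 and 26388, and interstitial fibroblasts (7 genes) had 3 below and 0 above, with 24777, 11490, 13873 and 26589. Among the fibroblast genes, Col1a1, a chain of type I collagen, had 1742, 1809, 1016, 772 and 762 in LBR-null and 6605 and 6718 in WT libraries, 17.8% of WT. Its log2 difference was -2.58 ± 0.46 (SE), with an adjusted p of 0.0938 in limma, 0.0873 in edgeR and 3.79e-05 in DESeq2. Of the 7 fibroblast genes, 2 were at least 2-fold lower and 2 at least 2-fold higher, where 8.80% and 22.7% of all genes read were. The 2 higher were Dcn and Lum, at 203% and 259% of WT. In mice 4001, 4002, 4007 and WT, Dcn stood at 8777, 2749, 5872 and 2862 normalized counts. Lum stood at 1058, 43.8, 31.7 and 146 in the same order. The part of the fibroblast genes in the mitotic genes' values was not tested. Markers of proximal tubule injury (7 genes) had 4 below and 2 above, with sums of 25235, 18797, 17468 and 45484, most of which were reads of Spp1 and Clu (49.1% and 30.5% of WT). The 2 above were Lcn2 (226% of WT, adjusted p 0.294 in limma) and Sox9 (145%, adjusted p 0.643). None of the markers was at 0 in every library.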

How the data were processed

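Kidney RNA-seq libraries of 3 LBR-null mice (5 libraries) and 1 WT mouse (2 libraries) were used. The signal deposited by the authors for each gene symbol is a read count divided by the size factor of its library, after alignment to mm9 (per the submitters' notes, STAR 2.6.0 and DESeq2 1.25.1). The counting program, its annotation and its use of strand are not given in the sources used here. All values (100%) were whole multiples of 1 read within 0.01 read, and the reads were recovered by division.

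Libraries were averaged within a mouse, since both came from 1 kidney, and the mouse was the replicate. Mouse means on log2(normalized counts + 1) entered limma 3.58.1 (R 4.3.3, eBayes with a trend). It covered 17283 genes whose mean reached 5, and p-values were adjusted over all of them by Benjamini-Hochberg. A call needed both 2-fold and an adjusted p of 0.05. The reads summed per mouse were also given to edgeR 4.0.16 (quasi-likelihood) and to DESeq2 1.42.0. Each fit was tested on simulated data. Alternatives were other pseudocounts, filters and scalings, single libraries, each mouse left out and, chosen after the data were seen, each LBR-null mouse alone. p-values measure the spread between these mice only.

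Values in every library were to be printed for the extremes and the most highly read gene of each role, for genes opposite in direction to the median and for genes called by any tool, and all 40 were printed. In other lists the extremes were named. Exosc9, Cdc23, Smc2, Smc4, Cdca3, Racgap1 and the tubule markers were named after their values were seen. So were Alas2, Slc4a1, Klf1, Gata1, Ermap, Six2, Lum, Spp1 and Sox9. The list of tubule and podocyte markers as a whole is not reported here. The 40 genes and all lists were chosen with earlier results of these data known. Of 311 listed symbols 4 were not matched. Exon lengths, overlaps and gene positions came from GENCODE models of mm9, and promoter sequences from RefSeq on GRCm38.p6. Figures were drawn with matplotlib 3.10.9 under Python 3.11.15.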

Additional observations from a re-analysis of the deposited data

Results flagged for a closer look

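In 5 of the 40 genes, 1 of the 5 LBR-null libraries stood apart from the rest by Dixon's criterion, where chance gives about 1 in 20 for independent libraries. The libraries are not independent, since mice 4001 and 4007 gave 2 each and mouse 4002 gave 1. For Top2a, library 2 of mouse 4001 had 143 normalized counts, where the other LBR-null libraries had 54.0 to 73.5. In library 1 of mouse 4001, Tpx2 stood at 82.7, against 25.1 to 39.0 elsewhere, and Foxm1 at 16.1, against 25.5 to 28.9. In the library of mouse 4002, Kif23 stood at 589, against 293 to 361 in the others, and Prc1 at 68.8, against 28.7 to 39.9. For Top2a, Tpx2, Foxm1 and Prc1 the library that stood apart was still below both WT libraries, and for Kif23 it was above both.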

How the results depend on the processing

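The number of mitotic genes at least 2-fold lower stayed between 29 and 31 under every alternative run for it, and 38 of the 40 genes kept the sign of their difference. The median of -1.86 was -1.67 with a pseudocount of 5, -2.04 with the first library of each mouse, -1.74 for mouse 4007 alone and -2.01 to -1.81 with 1 LBR-null mouse left out. Genes above WT in all mice (1) numbered 1 to 4 with a mouse left out, 2 with first libraries, and 3, 6 and 4 for mice 4001, 4002 and 4007 alone. Calls by limma, 0 genes in all and 0 of the 40, ranged from 0 to 1163 and from 0 to 22 with a mouse left out (1163, 625 and 0 genes without mice 4001, 4002 and 4007). Second libraries gave 1 gene, edgeR 28, DESeq2 1109 with 24 of the 40, and single libraries with the mouse as a random effect 847 with 16 of the 40. The difference of Kif20a (-0.02) was -0.18 to 0.21 with a mouse left out, 0.05 with second libraries and 0.00 in DESeq2, and that of Mybl2 (-0.11) was -0.21 to 0.09 and 0.13 with second libraries. The cause was not tested.

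Replicate numbers name libraries of 1 mouse and pair nothing across mice. With the library number as a replicate block, limma called 683 genes and 12 of the 40. The fit with 1 WT mouse cannot separate genotype from individual, and lone samples are assumed to vary like the others. The median of all genes, 0.01 on the log2 scale, was -0.02 under TMM scaling and 0.00 with equal library totals.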
